A study of Homo sapiens with 20 samples.

Results

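The line labelled NME1-K12Q was compared with the line labelled Parent on 8 of the 20 arrays of the series, 4 arrays for each line, chosen by their titles. Both lines are WM793, an established human melanoma cell line from a vertical growth phase tumour. The NME1-K12Q line is WM793 that overexpresses, per the design text, NME1 with the K12Q change, in which glutamine replaces a lysine, and Parent is WM793 without a construct. The study also holds lines with the constructs NME1-E5A, NME1-wild-type and NME1-P96S, again with 4 arrays each. All cells were grown for 3 days in the same medium, the labels name no treatment, and RNA was hybridised to Affymetrix human exon arrays. Per the design text each line was run on 4 arrays as technical replication, and every construct has a single line. All p-values below therefore speak only of the spread between such arrays. The sources used here do not name the promoter of the construct. The series title frames the work as a search for an expression signature of metastasis suppression by NME1.

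NME1 encodes a nucleoside diphosphate kinase, an enzyme that passes a phosphate between nucleotides, and also has exonuclease and histidine kinase activities. It is a metastasis suppressor gene, and its level is often reduced in metastatic melanoma. The lysine that K12Q replaces sits in the active site, and K12Q is known as a form that lacks the nucleotide kinase and the exonuclease activity.

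The promoters of CXCL11 and ALDOC are shown here because these genes had the lowest values in NME1-K12Q relative to the mean of the other 4 lines. Each is the 250 bases before the gene's start in RefSeq on GRCh38.p14, read 5′ to 3′ on the minus strand, at chr4:76036071-76036320 for CXCL11 and chr17:28576896-28577145 for ALDOC. Capitals mark matches to 4 motifs searched on both strands: TGANTCA (AP-1), TGACNNNGC (the core of the antioxidant response element), ACGTG (the core of the hypoxia response element) and the core of the interferon-stimulated response element.
CXCL11: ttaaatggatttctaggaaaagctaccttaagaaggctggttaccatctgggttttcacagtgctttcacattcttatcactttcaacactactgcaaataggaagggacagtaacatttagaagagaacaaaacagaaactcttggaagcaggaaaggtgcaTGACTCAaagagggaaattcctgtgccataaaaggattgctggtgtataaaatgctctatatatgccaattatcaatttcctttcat
ALDOC: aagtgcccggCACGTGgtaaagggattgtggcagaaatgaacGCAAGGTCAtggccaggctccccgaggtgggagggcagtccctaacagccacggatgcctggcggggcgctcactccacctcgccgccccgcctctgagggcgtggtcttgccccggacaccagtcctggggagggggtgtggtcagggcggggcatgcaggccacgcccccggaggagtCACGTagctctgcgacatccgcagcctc
The CXCL11 window held 1 AP-1 match, TGACTCA, and no match to the interferon motif. In the ALDOC window ACGTG matched 3 times, the first 2 overlapping in the palindrome CACGTG, and the antioxidant motif matched once on the reverse strand. The windows of SERPINA3, EREG and INHBA, searched in the same way, held no match, and that of PRDM1 held 1 match to ACGTG. Of 27305 promoter windows of this length, 6.6% held TGANTCA, 11% held TGACNNNGC, 18.7% held ACGTG and 3.07% held the interferon motif. These matches describe letters in the windows and are not sites of binding.

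The arrays of both lines had the profile of a poorly pigmented melanoma line. SOX10, a transcription factor of the neural crest lineage, averaged 9.35 ± 0.02 in NME1-K12Q and 9.34 ± 0.12 in Parent (log2 level, SD, n = 4 each), and S100B averaged 8.22 ± 0.32 and 8.59 ± 0.08. The pigment genes MLANA, TYRP1, PMEL and MITF averaged 3.69, 4.17, 4.71 and 5.69 over all 20 arrays, so the defining markers of pigmented cells were low. The markers PTPRC of leukocytes (3.30), PECAM1 of endothelium (4.35) and EPCAM of epithelium (3.61) were also dim, but not every such marker was. CD68 of the leukocyte list and KRT18 of the epithelial list were bright, with levels given further on. The mean level of the fibroblast markers on an array ran from 5.88 to 6.22 in NME1-K12Q and from 6.05 to 6.18 in Parent. Arrays correlated with r from 0.972 to 0.992 within NME1-K12Q, 0.925 to 0.987 within Parent and 0.939 to 0.993 between them. Spread differed more: the interquartile range of an array was 2.75, 2.46, 2.73 and 2.98 in NME1-K12Q and 2.71, 2.19, 2.60 and 3.07 in Parent. Parent replicate 2 was the narrowest of the 20 arrays, and NME1-K12Q replicate 2 was also among the narrowest 3. In RNA from whole cultures, fewer cells that express a gene and less RNA per cell cannot be told apart.

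For NME1 itself, row 3726934 is annotated to NME1 together with its NME1-NME2 readthrough. Its log2 levels were 9.45, 9.93, 9.89 and 9.74 on the NME1-K12Q arrays, against 9.37, 9.40, 9.74 and 9.59 on the Parent arrays. The groups overlapped, and 2 of 4 NME1-K12Q arrays lay above the highest Parent array. The means of 9.75 ± 0.22 and 9.53 ± 0.17 (SD, n = 4 each) differ by 0.23 on the log2 scale, or 1.17-fold, with a 95% interval from -0.02 to 0.47. An exact two-sided permutation test gave p = 0.143, where 0.0286 is the smallest p this design allows. Overexpression of NME1 did not pass a test on this row, and whether its probes read the construct was not tested. Of the other 6 NME genes with rows of their own, 0 changed and 1 had a positive value, against 3 positive without Parent replicate 2. NME4, a mitochondrial kinase of the family, averaged 9.61 ± 0.09 in NME1-K12Q and 9.66 ± 0.17 in Parent, and NME3 averaged 7.49 ± 0.19 and 7.69 ± 0.19.

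Of 18384 features tested between the lines, 1 changed. The limits were a fold of 1.5 or more and a limma p below 0.05 after Benjamini-Hochberg adjustment. This is 0.00544% of features, and no gene with a symbol was among them. Before adjustment 273 features (1.48%) had p below 0.05, 116 of them higher and 157 lower. The 4 arrays of each line did not overlap for 216 features (1.17%), with NME1-K12Q above in 108 and below in 108. The 95% interval of the difference lay within 1.5-fold in both directions for 12898 features (70.2%), while for 5486 it did not, so a difference of that size could not be bounded there. The median interval reached 0.38 to either side on the log2 scale, which corresponds to 1.30-fold. The plot of all features against their p shows these few points apart from the rest.

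**Figure D1:**
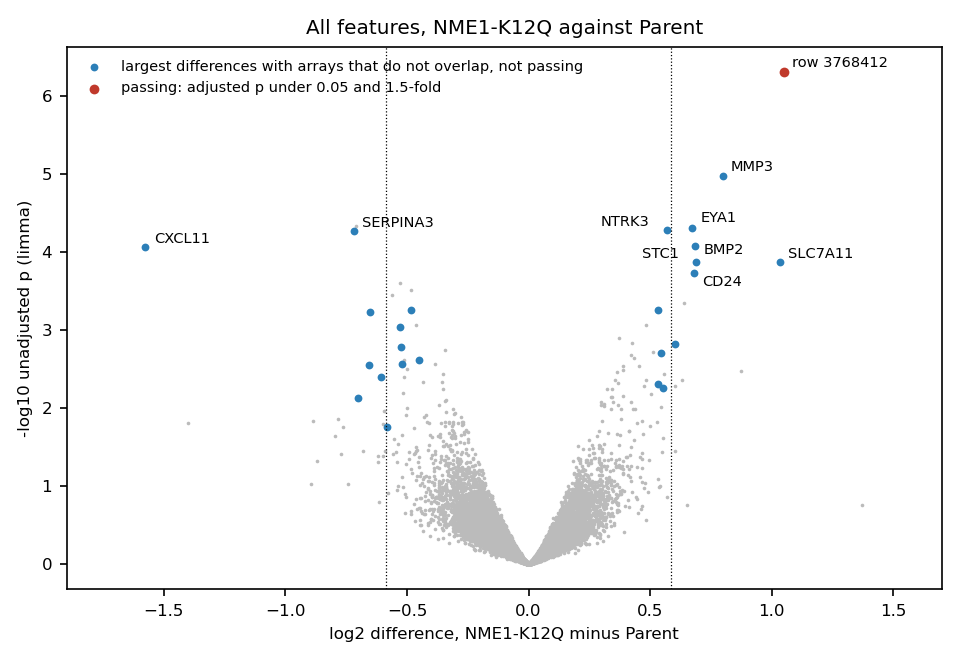
Each point is 1 of 18384 features, with the log2 difference (NME1-K12Q minus Parent) on the horizontal axis and -log10 of the unadjusted limma p on the vertical axis; dotted lines mark 1.5-fold. Row 3768412 (red) passed the threshold, and the named genes in blue, which include MMP3 at 0.80 and CXCL11 at -1.58, did not.

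The changed feature was row 3768412, which the platform annotation does not list and which therefore has no gene name here. It read 7.69, 7.65, 7.85 and 7.56 in NME1-K12Q, against 6.92, 6.51, 6.45 and 6.66 in Parent. All 4 NME1-K12Q arrays lay above every Parent array. The row rose by 1.05 on the log2 scale (SE 0.14, 95% interval 0.75 to 1.35), or 2.07-fold, with a limma adjusted p of 0.00909. Its mean was 7.69 ± 0.12 in NME1-K12Q and 6.27 ± 0.04, 6.98 ± 0.04, 6.41 ± 0.35 and 6.64 ± 0.21 in NME1-E5A, NME1-wild-type, NME1-P96S and Parent (SD, n = 4 each). It was also higher than in NME1-E5A (1.42, limma adjusted p = 1.6e-05) and NME1-P96S (1.28, limma adjusted p = 0.000155), whereas the difference of 0.71 from NME1-wild-type did not pass (limma adjusted p = 0.124). The call against Parent ended when NME1-K12Q replicate 1 or 3, or Parent replicate 2 or 3, was left out, with differences of 1.05, 1.00, 1.01 and 0.99 and limma adjusted p from 0.0508 to 0.0858. It also ended when the 8 arrays were fitted alone (limma adjusted p = 0.232).

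In the main limma test no named gene passed against Parent. Under the alternative settings described further on, treat aside, MMP3 passed most often, in 6 of 29, followed by EYA1 in 4 and SERPINA3 in 3. The genes below have the largest differences among single-symbol genes with separate arrays and an unadjusted p under 0.05 (58 higher and 46 lower). Their values are descriptions of 8 arrays. Their intervals exclude 0 by that choice.

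**Figure D2:**
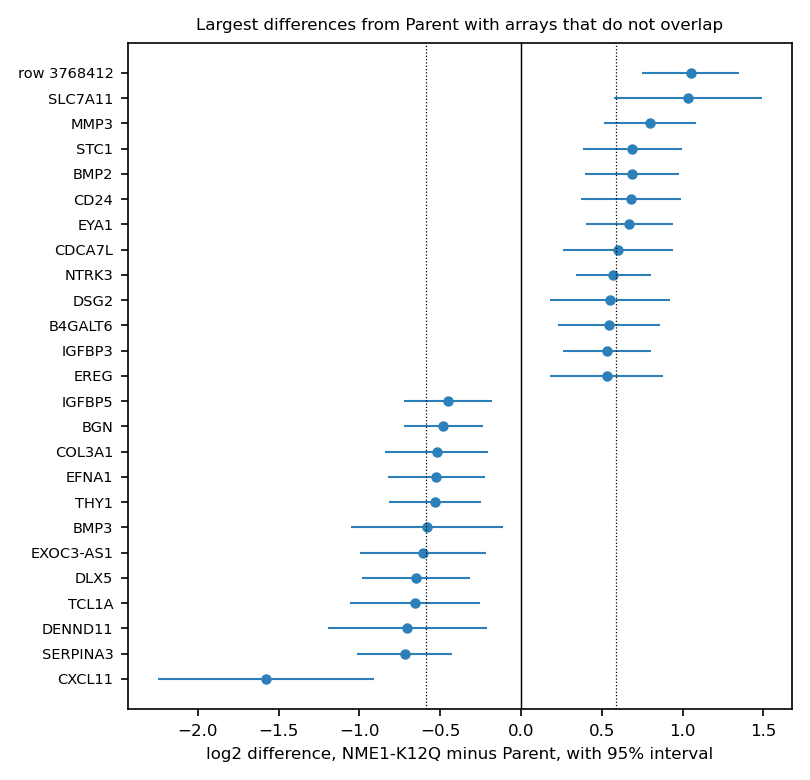
Log2 difference (NME1-K12Q minus Parent, horizontal axis) with its 95% interval for row 3768412 and the 12 genes in each direction with the largest differences among those whose arrays did not overlap. Dotted lines mark 1.5-fold; only row 3768412 passed the adjusted threshold, and the interval of SLC7A11 runs from 0.58 to 1.49 and that of CXCL11 from -2.25 to -0.91.

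Among transporters and secreted enzymes, SLC7A11 and MMP3 led the higher side. SLC7A11 on chromosome 4, which encodes the cystine-glutamate exchanger that feeds glutathione synthesis, read 9.66, 9.19, 9.45 and 9.45 in NME1-K12Q, against 8.56, 7.72, 8.53 and 8.79 in Parent. The lines did not overlap, and Parent replicate 2 lay well under its fellows. The difference was 1.03 (2.05-fold, SE 0.22, limma adjusted p = 0.251), and 0.81 without Parent replicate 2. MMP3 on chromosome 11, the matrix metalloproteinase stromelysin, read 6.88, 6.45, 6.62 and 6.70 in NME1-K12Q, against 5.94, 5.94, 5.85 and 5.73 in Parent. Its Parent arrays lay close together and below every NME1-K12Q array. The difference was 0.80 (1.74-fold, SE 0.14), with a limma adjusted p of 0.0969. Without the 3 narrowest arrays MMP3 passed (0.89, limma adjusted p = 0.0258).

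Secreted signalling proteins formed much of the rest. BMP2 on chromosome 20, a bone morphogenetic protein of the TGF-beta superfamily, read 9.02, 9.48, 9.23 and 9.24 in NME1-K12Q, against 8.39, 8.74, 8.71 and 8.39 in Parent (difference 0.69, SE 0.14, limma adjusted p = 0.198). All NME1-K12Q arrays were above all Parent arrays. EREG on chromosome 4, the EGF-receptor ligand epiregulin, read 7.77, 7.50, 7.45 and 7.62 in NME1-K12Q, against 7.31, 7.13, 6.86 and 6.92 in Parent (difference 0.53, limma adjusted p = 0.9999). The gap between its groups was narrow. STC1, the glycoprotein hormone stanniocalcin, read 7.82, 7.41, 7.68 and 7.72 in NME1-K12Q, against 7.23, 6.80, 6.72 and 7.12 in Parent. IGFBP3, which binds insulin-like growth factors in the medium, was among the brightest features and read 11.28, 11.28, 11.15 and 11.40 in NME1-K12Q, against 10.50, 10.50, 10.93 and 11.05 in Parent. These 2 differences were 0.69 and 0.53 and did not pass (limma adjusted p = 0.251 and 0.597).

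Receptors, adhesion proteins and regulators with higher values made up the remaining genes of this direction. EYA1, a transcriptional coactivator and phosphatase, read 7.37, 7.25, 7.37 and 7.57 in NME1-K12Q, against 6.84, 6.57, 6.61 and 6.84 in Parent (difference 0.67, limma adjusted p = 0.165). NTRK3, the receptor for neurotrophin-3, read 6.22, 6.14, 6.16 and 6.09 in NME1-K12Q, against 5.63, 5.54, 5.59 and 5.56 in Parent (difference 0.57, limma adjusted p = 0.165). Neither gene had overlapping arrays, and NTRK3 was the tighter of the pair. The surface sialoglycoprotein gene CD24 was dim, with 4.81, 4.31, 4.57 and 4.86 in NME1-K12Q and 4.17, 3.70, 3.92 and 4.03 in Parent. CDCA7L, which encodes a MYC-interacting nuclear protein, read 4.84, 4.70, 4.72 and 4.86 in NME1-K12Q, against 4.03, 4.69, 3.90 and 4.10 in Parent. Parent replicate 2 came within 0.01 of the lowest NME1-K12Q array for CDCA7L. DSG2, a desmosomal cadherin, differed by 0.55, and B4GALT6, a lactosylceramide synthase, by 0.54, both at a limma adjusted p of 0.9999.

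On the lower side the chemokine CXCL11 stood out by size. CXCL11 on chromosome 4, an interferon-inducible ligand of the receptor CXCR3, read 4.16, 4.46, 4.82 and 5.10 in NME1-K12Q, against 6.17, 6.22, 6.12 and 6.34 in Parent. Every NME1-K12Q array was at least 1.02 below every Parent array, and the NME1-K12Q arrays were more widely spread. The difference was -1.58 on the log2 scale (2.98-fold, SE 0.32), with a limma adjusted p of 0.198. Its neighbour in function CXCL10, also a CXCR3 ligand, averaged 4.14 ± 0.33 in NME1-K12Q and 4.61 ± 0.48 in Parent, with overlapping arrays. SERPINA3, the acute-phase inhibitor alpha-1-antichymotrypsin on chromosome 14, read 8.23, 7.55, 7.99 and 7.90 in NME1-K12Q, against 8.64, 8.53, 8.54 and 8.83 in Parent. Its groups were separate, with NME1-K12Q replicate 2 the lowest of the 8 arrays, and the difference was -0.72 (SE 0.14, limma adjusted p = 0.165).

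The next genes were chosen for their low values, and the lists of matrix and of invasive melanoma genes, described further on, had mostly positive values. THY1, a surface glycoprotein of mesenchymal cells, read 7.82, 7.76, 7.68 and 8.04 in NME1-K12Q, against 8.29, 8.16, 8.40 and 8.57 in Parent (difference -0.53, limma adjusted p = 0.794). BGN, the proteoglycan biglycan, read 7.83, 8.11, 7.94 and 7.90 in NME1-K12Q, against 8.27, 8.48, 8.55 and 8.41 in Parent (difference -0.48, limma adjusted p = 0.597). COL3A1, a fibrillar collagen chain, read 5.75, 5.99, 5.50 and 5.42 in NME1-K12Q, against 6.07, 6.33, 6.23 and 6.11 in Parent. These groups did not overlap, but the gap was small beside their spread. DLX5, a homeobox factor of bone and neural crest, read 6.86, 6.54, 6.75 and 6.71 in NME1-K12Q, against 7.16, 7.14, 7.65 and 7.51 in Parent (difference -0.65, limma adjusted p = 0.597). The ephrin ligand gene EFNA1, the growth factor binding protein gene IGFBP5 and the growth factor gene BMP3 differed by -0.52, -0.45 and -0.58, all at a limma adjusted p of 0.9999. TCL1A differed by -0.66, and its highest value was that of Parent replicate 2 at 6.23. DENND11 and EXOC3-AS1 completed the 12 genes, at -0.70 and -0.61.

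Gene groups were read against the background of the same comparison, because direction went with level. Over all features 36.3% had a positive difference and the median was -0.05. From the dimmest to the brightest of 4 equal bins of features the share of positive differences was 18.0%, 23.1%, 43.5% and 60.5%. Without Parent replicate 2 these shares were 63.7%, 62.4%, 49.3% and 45.3%, so the order turned round. In the brightest bin 1.39% of features were higher and 0.326% lower at an unadjusted p under 0.05, against 0.174% and 1.46% in the dimmest. The lists below differ in level. In the brightest bin lay 18 of 20 glycolysis and 24 of 28 cell cycle genes, against 12 of 30 matrix proteases and inhibitors. The same bin held 3 of 14 melanocyte, 1 of 18 interferon response and 0 of 9 kainate receptor and TRIML genes. The part of array spread in each list's values was not tested. Values without Parent replicate 2 follow each list.

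**Figure D3:**
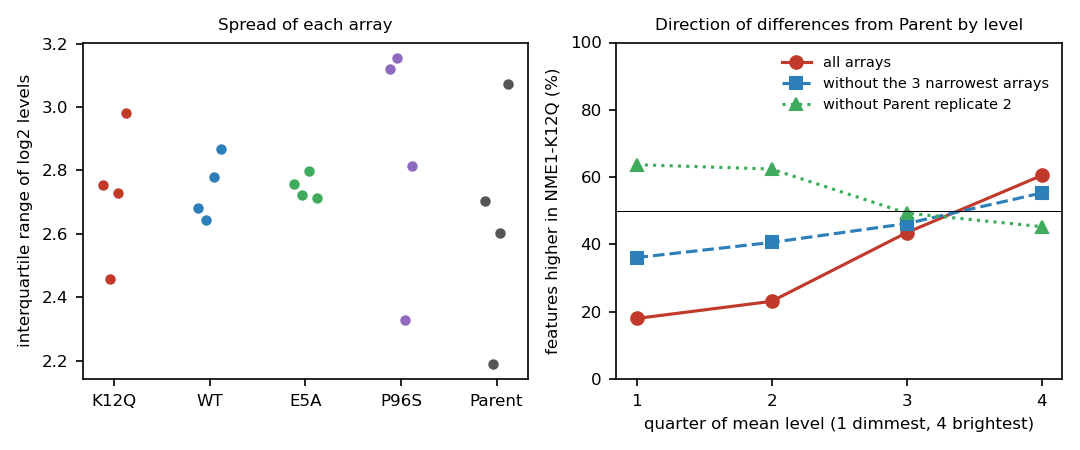
Left, the interquartile range of log2 levels on each of the 20 arrays by line, with Parent replicate 2 lowest at 2.19. Right, the percentage of features with a higher value in NME1-K12Q than in Parent in 4 equal bins of mean level, from 18.0% to 60.5% over all arrays and from 63.7% to 45.3% without Parent replicate 2.

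Targets of NRF2, the factor that induces antioxidant enzymes, had the highest median of the lists. Of 10 measured members 0 changed, 8 were positive and the median difference was 0.24, or 0.17 with 7 positive without Parent replicate 2. Against the same Parent arrays the median was 0.18 in NME1-wild-type, 0.05 in NME1-E5A and -0.16 in NME1-P96S. The median of NME1-K12Q minus NME1-wild-type was 0.002. SLC7A11 belongs to this list. TXN, the electron donor thioredoxin, averaged 9.97 ± 0.29 in NME1-K12Q and 9.50 ± 0.30 in Parent, and its reductase TXNRD1 averaged 9.91 ± 0.09 and 9.56 ± 0.20. Neither passed (both limma adjusted p = 0.9999), and AKR1C3 and OSGIN1 had negative values.

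Glycolysis and hypoxia genes had mostly positive values. Of 20 glycolysis genes 0 changed, 19 were positive and the median was 0.18, and without Parent replicate 2 the values were 16 positive and 0.13. Against the same Parent arrays the glycolysis median was 0.39 in NME1-E5A, 0.16 in NME1-P96S and 0.09 in NME1-wild-type. Against the mean of the other 4 lines the NME1-K12Q median was 0.02. ENO2, the neuronal enolase, read 8.13, 8.02, 8.08 and 8.04 in NME1-K12Q, against 7.69, 7.92, 7.46 and 7.52 in Parent (difference 0.42). PFKFB3, which makes the activator of phosphofructokinase, read 9.09, 9.08, 9.13 and 9.20 in NME1-K12Q, against 8.93, 8.72, 8.74 and 8.76 in Parent (difference 0.34). Both were separate between the lines and neither passed. The abundant enzymes GAPDH and ENO1 differed by 0.10 and 0.06, and ALDOC, the aldolase of neural tissue, had the list's negative value of -0.26. Of 25 hypoxia response genes outside glycolysis 0 changed, 19 were positive, and the median was 0.16 (20 positive and 0.13 without Parent replicate 2). The hypoxia median against Parent was 0.64 in NME1-E5A, 0.14 in NME1-P96S and 0.06 in NME1-wild-type. For NME1-K12Q against the mean of the other lines it was -0.07. AK4, a mitochondrial adenylate kinase, averaged 7.88 ± 0.18 in NME1-K12Q and 7.36 ± 0.56 in Parent, where replicate 2 read 6.54. ERO1A, an oxidase that drives disulphide formation in the endoplasmic reticulum, averaged 8.59 ± 0.17 and 8.12 ± 0.27. BNIP3, a mitophagy receptor, differed by 0.30 and NDRG1, a stress-responsive gene also counted as a metastasis suppressor, by 0.21.

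Matrix proteases, signalling outputs and growth genes showed smaller medians, also with 0 members changed. Of 30 proteases and inhibitors 17 were positive at a median of 0.07, against 23 positive and 0.09 without Parent replicate 2. MMP14, a membrane-bound metalloproteinase that activates MMP2, averaged 10.41 ± 0.08 in NME1-K12Q and 10.06 ± 0.12 in Parent with no overlap. MMP1, the interstitial collagenase, averaged 12.46 ± 0.08 and 12.18 ± 0.16, and MMP2, a gelatinase, differed by 0.16. Of 24 genes of MAPK feedback and output 18 were positive at a median of 0.09, against 13 positive and 0.01 without Parent replicate 2. DUSP4, a phosphatase that dampens ERK, averaged 8.66 ± 0.05 in NME1-K12Q and 8.36 ± 0.09 in Parent. CCND1, cyclin D1, differed by 0.20 and SPRY2, a feedback inhibitor of receptor signalling, by 0.10. Of 28 cell cycle genes 24 were positive at a median of 0.09, against 17 positive and 0.05 without Parent replicate 2. The mitotic kinase gene PLK1 differed by 0.30 and the mitotic transcription factor gene FOXM1 by 0.26, while CCNB1 and RRM2, among the brightest members, differed by 0.07 and 0.08. The cell cycle median against Parent was 0.20 in NME1-wild-type, 0.10 in NME1-E5A and 0.08 in NME1-P96S.

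Cholesterol biosynthesis had values on the other side of 0. All 12 measured members were negative, from -0.31 to -0.03, at a median of -0.14, and 0 changed. Without Parent replicate 2 all 12 stayed negative at a median of -0.20, and 1 was positive without the 3 narrowest arrays. MVK, mevalonate kinase, averaged 7.39 ± 0.10 in NME1-K12Q and 7.60 ± 0.06 in Parent with no overlap (limma adjusted p = 0.9999). INSIG1, a sterol-sensing regulator, FDPS, farnesyl diphosphate synthase, and DHCR7, a late enzyme of the pathway, differed by -0.20, -0.14 and -0.08. The list's median against Parent was -0.21 in NME1-E5A, -0.006 in NME1-wild-type and 0.225 in NME1-P96S.

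Lists of melanoma cell states also held 0 changed genes. Of 14 melanocyte genes 7 were positive at a median of -0.04 (9 and 0.04 without Parent replicate 2), with the receptor gene KIT at -0.34 and SOX10 at 0.01. Of 24 genes of the undifferentiated invasive state 16 were positive at a median of 0.07 (15 and 0.01 without Parent replicate 2), from THY1 at -0.53 to WNT5A at 0.55. VIM and FN1, the mesenchymal filament vimentin and fibronectin, differed by 0.07 and 0.18. Of 30 matrix and adhesion genes 22 were positive at a median of 0.11 (19 and 0.04 without Parent replicate 2), and THBS1, SPARC and COL1A1 differed by 0.12, 0.03 and -0.31. Of 17 TGF-beta and activin genes 11 were positive at a median of 0.08, and without Parent replicate 2 the values were 9 and 0.00. Without the 3 narrowest arrays 8 were positive and the median was -0.01. The highest members were BMP2 and INHBA, while TGFBI and SMAD3 differed by 0.08 and 0.11. Of 10 genes reported as repressed by NME1 in cell motility 5 were positive at a median of 0.00 (4 and -0.05 without Parent replicate 2). The list holds the aminopeptidase gene ANPEP at 0.36, the receptor gene MET at 0.20 and the matricellular gene CCN2 at -0.13. Of 11 metastasis suppressors 5 were positive at a median of -0.03 (8 and 0.01 without Parent replicate 2), with KISS1 at -0.27 and TIMP3 at 0.13.

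Immune, repair and other lists held 0 changed genes as well. Of 18 interferon response genes 9 were positive at a median of -0.03, from IFIT1 at -0.43 to IFI6 at 0.55. The sign of that median turned without Parent replicate 2 (11 positive, 0.08) and without the 3 narrowest arrays (11 positive, 0.10). Of 16 inflammatory cytokines and chemokines 6 were positive at a median of -0.02 (5 and -0.04 without Parent replicate 2), with the cytokine gene IL1B at 0.38 and the chemokine gene CCL2 at -0.20. CXCL11, at -1.58, is a member of neither this list nor the interferon list, so their values do not cover it. Of 8 class II antigen genes 5 were positive at a median of 0.01, and the same number at 0.01 without Parent replicate 2. Nucleotide metabolism (28 measured, median 0.04), DNA repair partners of NME1 (16, 0.05), unfolded protein and amino acid stress (19, 0.04) and p53 targets (14, -0.01) lay near 0, and without Parent replicate 2 these medians were -0.04, -0.01, 0.05 and -0.01. Cancer-testis antigens (5) had a median of -0.10 with 0 positive, and kainate receptor and TRIML genes (9) of -0.09 with 3 positive. Both turned without Parent replicate 2, to 0.08 with 4 positive and 0.02 with 5 positive. Markers of other cells had medians of -0.17 for 8 leukocyte, -0.17 for 5 fibroblast, -0.06 for 6 endothelial and -0.06 for 7 epithelial genes. Without Parent replicate 2 the leukocyte, endothelial and epithelial medians turned to 0.09, 0.10 and 0.06, with 7, 6 and 7 members positive, while the fibroblast median was -0.18. CD68 and KRT18 were the members of these lists in the brightest bin, at 8.20 and 8.33. The plot of list members sets these values side by side.

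**Figure D4:**
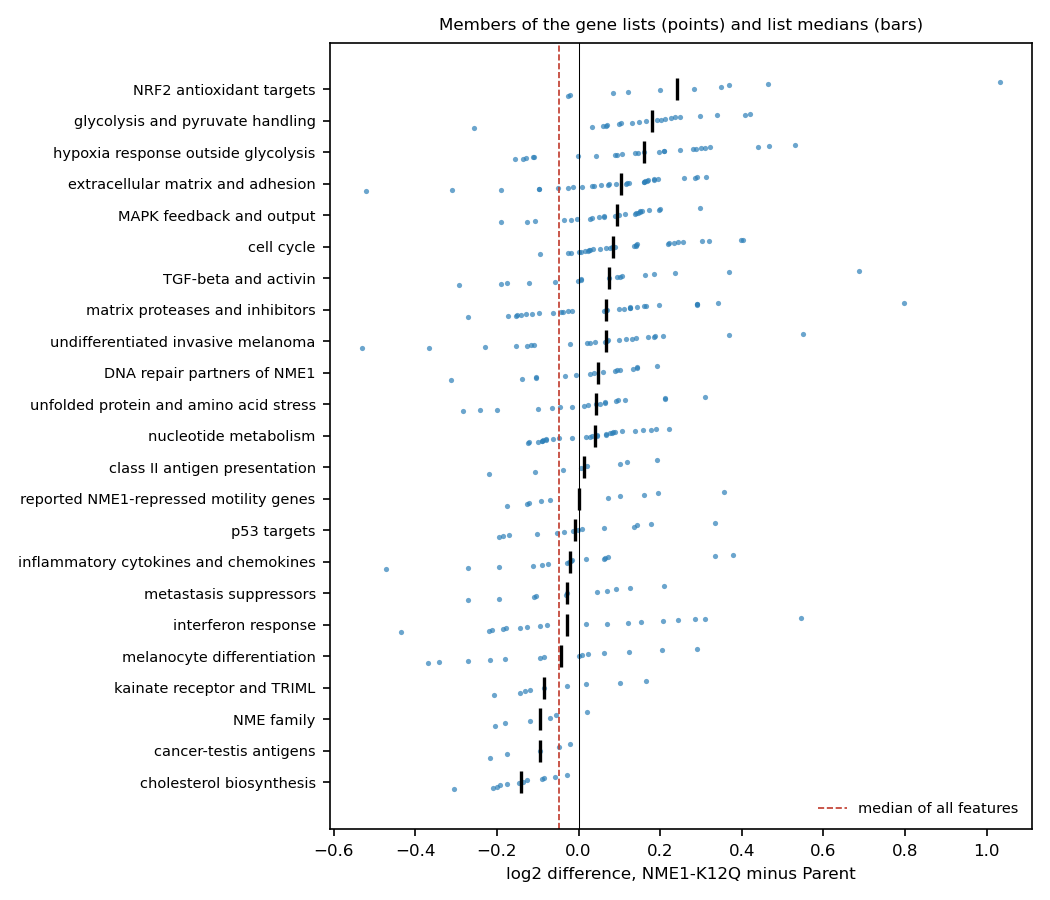
Log2 difference, NME1-K12Q minus Parent (horizontal axis), for each member of the gene lists (points), with list medians (black bars) and the median of all features (red dashed line, -0.05). NRF2 targets, glycolysis and hypoxia genes have the highest medians, at 0.24, 0.18 and 0.16, and cholesterol biosynthesis the lowest of the lists drawn, at -0.14; 0 members of any list changed.

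To see where NME1-K12Q stood apart from the whole series, it was set against the mean of the other 4 lines, which include Parent. Here 11 of 18384 features changed (0.0598%), 8 higher and 3 lower. SLC7A11 had the largest rise, at 1.26 (SE 0.17, limma adjusted p = 0.00205). Its means were 9.43 ± 0.19 in NME1-K12Q and 8.35 ± 0.25, 8.87 ± 0.23, 7.10 ± 0.41 and 8.40 ± 0.47 in NME1-E5A, NME1-wild-type, NME1-P96S and Parent. The lowest line, NME1-P96S, had itself fallen against Parent (-1.30, limma adjusted p = 0.0155). BMP2 rose by 0.93 (SE 0.11, limma adjusted p = 0.000344) and averaged 9.24 ± 0.19 in NME1-K12Q, against 7.86 ± 0.17, 8.66 ± 0.15, 8.18 ± 0.21 and 8.56 ± 0.19 in the other lines in the same order. For both genes every NME1-K12Q array lay above all 16 other arrays. Neither gene passed against NME1-wild-type alone, from which SLC7A11 differed by 0.57 (limma adjusted p = 0.9999).

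MMP3, EREG, PRDM1 and INHBA also rose against that mean. MMP3 rose by 0.82 (limma adjusted p = 0.00124), but its mean of 6.66 ± 0.18 in NME1-K12Q stood beside 6.501 ± 0.21 in NME1-wild-type, whose arrays overlapped with it. EREG rose by 0.79 (limma adjusted p = 0.0163) and averaged 7.59 ± 0.14 in NME1-K12Q, 7.94 ± 0.26 in NME1-wild-type and 5.97 ± 0.14, 6.23 ± 0.37 and 7.06 ± 0.20 in NME1-E5A, NME1-P96S and Parent. The highest line for EREG was thus NME1-wild-type, which did not differ from NME1-K12Q at the threshold (limma adjusted p = 0.9999). INHBA, the activin A subunit, rose by 0.59 (SE 0.09, limma adjusted p = 0.00714) and averaged 8.08 ± 0.20 in NME1-K12Q, against 7.43 ± 0.07, 7.69 ± 0.09, 7.10 ± 0.12 and 7.71 ± 0.16 in the other lines in that order. Every NME1-K12Q array lay above all 16 others for INHBA, but its difference of 0.39 from NME1-wild-type did not pass (limma adjusted p = 0.9999). The EREG call ended without any 1 of the 4 NME1-K12Q arrays (limma adjusted p up to 0.191), and the INHBA call ended with array weights and without NME1-K12Q replicate 1 or 4 or Parent replicate 2 (up to 0.0942). PRDM1, a transcriptional repressor of lymphocyte and melanocyte development, rose by 0.60 (limma adjusted p = 0.0407), a call that ended in 19 of 28 alternatives. Row 2377035, which the annotation gives to IL24 and FCMR, was picked out after seeing its value and rose by 0.71 (limma adjusted p = 0.0172), and row 3768412 rose by 1.11 (limma adjusted p = 4.67e-05). NTRK3 (0.56, limma adjusted p = 0.00772) and EYA1 (0.57, limma adjusted p = 0.0341) missed only the fold limit. For both, every NME1-K12Q array lay above all 16 others.

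CXCL11, ALDOC and SERPINA3 fell against the mean of the other lines. CXCL11 fell by 1.59 (SE 0.25, limma adjusted p = 0.00841), with means of 4.64 ± 0.41 in NME1-K12Q and 6.001 ± 0.60, 7.13 ± 0.71, 5.58 ± 0.47 and 6.21 ± 0.09 in NME1-E5A, NME1-wild-type, NME1-P96S and Parent. The call ended without NME1-K12Q replicate 1 or 2 (limma adjusted p up to 0.141), and 1 NME1-P96S array, at 4.94, lay within the NME1-K12Q range. SERPINA3 fell by 0.74 (SE 0.11, limma adjusted p = 0.00602), with means of 7.92 ± 0.28 in NME1-K12Q and 9.04 ± 0.13, 8.27 ± 0.16, 8.65 ± 0.18 and 8.63 ± 0.14 in the other lines in that order. The SERPINA3 call ended without NME1-K12Q replicate 2 (limma adjusted p = 0.0586). ALDOC fell by 1.05 (SE 0.11, limma adjusted p = 4.67e-05). Of these genes, ALDOC kept its call in all 28 alternatives other than treat, as did SLC7A11, BMP2, MMP3 and row 3768412.

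**Figure D5:**
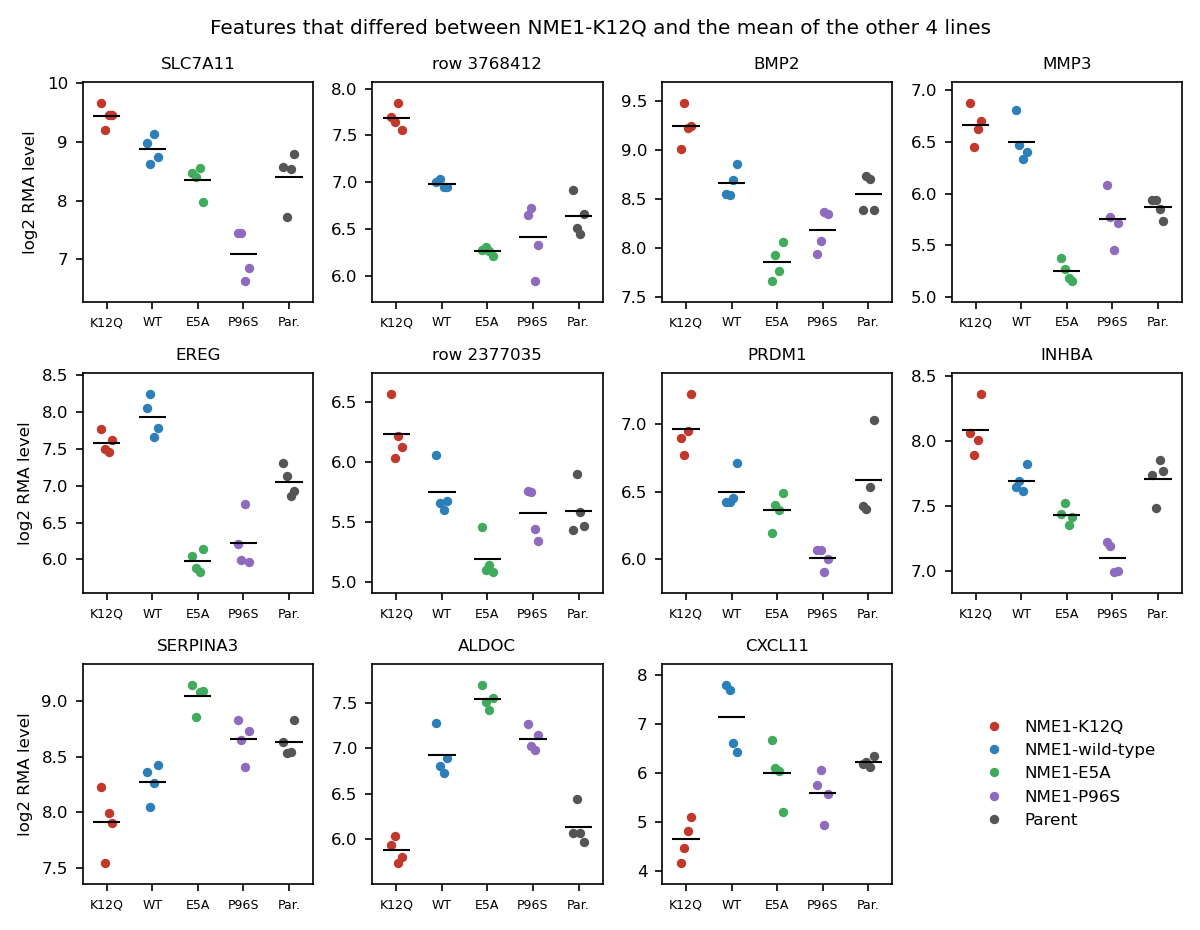
Log2 RMA level (vertical axes, each with its own range) on the 4 arrays (points) and mean (bar) of each line for the 11 features that differed between NME1-K12Q and the mean of the other 4 lines, with NME1-K12Q leftmost and Parent rightmost. ALDOC is low in NME1-K12Q (mean 5.88) and Parent (6.13) and high in the other 3 lines (6.93 to 7.55).

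ALDOC separated NME1-K12Q from the other NME1 lines rather than from Parent. It read 5.94, 6.04, 5.74 and 5.80 in NME1-K12Q, against 6.07, 6.44, 6.07 and 5.96 in Parent. These arrays overlapped, and the difference of -0.26 had a 95% interval from -0.54 to 0.02, which lies within 1.5-fold. In NME1-E5A, NME1-wild-type and NME1-P96S it averaged 7.55 ± 0.12, 6.93 ± 0.24 and 7.11 ± 0.13 (SD, n = 4 each). NME1-K12Q was lower than each of them, by -1.67, -1.05 and -1.23 (limma adjusted p = 1.63e-06, 0.000915 and 0.000145), and all 4 of its arrays lay below all 12 of theirs. Those 3 lines were each higher than the same Parent arrays, by 1.41, 0.79 and 0.97 (limma adjusted p = 1.43e-05, 0.0292 and 0.00348). Against 3 of the 4 other lines was the most that any feature reached: ALDOC and row 3768412 did so, and 0 features changed against all 4.

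Direct comparisons with the other NME1 lines called more features than the comparison with Parent. Against NME1-wild-type 7 features changed (0.0381%), 1 higher and 6 lower. CXCL11 fell by 2.49 (limma adjusted p = 0.000915). TRIML2, a tripartite motif family member, fell by 1.18 (limma adjusted p = 0.000442), and NETO2, an auxiliary subunit of kainate receptors, by 1.01 (limma adjusted p = 0.000442). For the last 2 the NME1-K12Q level was close to Parent, with differences of 0.17 and 0.10. NTRK3 rose by 0.72 (limma adjusted p = 0.00974), a call that ended with the 2 lines fitted alone, with quantile normalisation and without NME1-K12Q or NME1-wild-type replicate 1 (up to 0.229). Rows 4008819 and 4008802, each annotated to 4 copies of XAGE1 and picked out after seeing their values, fell by 1.05 and 0.99, and neither can be given to 1 copy. Same-numbered arrays of these 2 lines deviated together, and with the replicate block row 4008819 no longer passed (limma adjusted p = 0.0807) while THY1 did (-0.70, limma adjusted p = 0.00556).

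Against NME1-E5A, 31 features changed (0.169%), 15 higher and 16 lower. Hypoxia and glycolysis genes lay on the lower side. BNIP3, AK4 and VLDLR, 3 of 25 hypoxia genes, were lower by 0.83, 1.02 and 0.86. ENO2 was lower by 0.88 beside ALDOC, 2 of 20 glycolysis genes. NRN1, which encodes a neurite-promoting protein, fell by 1.20, SERPINA3 by 1.13 and BEND5 by 1.09. On the higher side stood EREG at 1.61, MMP3 at 1.41, BMP2 at 1.39, NETO2 at 1.21, SLC7A11 at 1.09, IRF4 at 0.75 and INHBA at 0.65. All of these passed, with limma adjusted p from 1.58e-05 to 0.0427 on the higher side. Against Parent, BNIP3, AK4, VLDLR, ENO2, NRN1 and BEND5 differed by 0.30, 0.53, 0.31, 0.42, 0.15 and 0.07 in NME1-K12Q. In NME1-E5A these genes were higher than in Parent, by 1.13, 1.55, 1.17, 1.30, 1.35 and 1.16, and all passed (limma adjusted p up to 0.00107). NETO2, IRF4 and EREG differed from Parent by 0.10, 0.001 and 0.53 in NME1-K12Q and by -1.11, -0.75 and -1.08 in NME1-E5A. For SLC7A11 these values were 1.03 and -0.05.

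Against NME1-P96S 51 features changed (0.277%), 32 higher and 19 lower. Interferon-induced genes were among the higher ones: IFI6 by 1.17, OAS1 by 0.95, OAS2 by 0.94, IFI44L by 0.80 and MX1 by 0.59, 5 of 18 measured, with 0 lower. CXCL11, which is not on that list, differed from NME1-P96S by -0.94 and did not pass (limma adjusted p = 0.652). Class II genes were among the lower ones: HLA-DPB1 by 0.91, HLA-DPA1 by 0.88 and CD74, the invariant chain, by 0.86, 3 of 8 measured. Set against Parent, OAS1, HLA-DPB1, HLA-DPA1 and CD74 differed by 0.02, 0.02, 0.19 and 0.10 in NME1-K12Q. In NME1-P96S these genes differed from Parent by -0.93, 0.93, 1.07 and 0.96, and all passed (limma adjusted p up to 0.0329). IFI6, OAS2 and IFI44L differed from Parent by 0.55, 0.31 and 0.29 in NME1-K12Q and by -0.62, -0.63 and -0.52 in NME1-P96S. Of 29 alternatives the HLA-DPA1 call against NME1-P96S ended in 16 and the HLA-DPB1 call in 6, among them those without NME1-K12Q replicate 2, 3 or 4. SLC7A11 rose by 2.34 (limma adjusted p = 2.26e-05), EREG by 1.36, DKK1, a secreted Wnt antagonist, by 1.26, BMP2 by 1.06, INHBA by 0.98 and MMP3 by 0.91. PCDHB14, a protocadherin gene with near-identical relatives, was lower by 0.86. Row 2832325, annotated to PCDHB14 together with PCDHB5, PCDHB9 and PCDHB19P, differed from NME1-P96S by -0.23 and did not pass (limma adjusted p = 0.9999). The calls of DKK1 and PCDHB14 ended in 5 and 6 of 29 alternatives, both of them without NME1-K12Q replicate 3 and without NME1-P96S replicate 2. When the 8 arrays of these 2 lines were fitted alone, 2 features changed in place of 51, and neither the IFI6 nor the EREG call held (both limma adjusted p = 0.0946).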

How the data were processed

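The deposited values are log2 expression levels that the authors made with RMA in R, per the labels and the design text. The submitters' processing notes name limma too, with no version. Not given in the sources used here: genome build and probe annotation release. The 18708 rows are transcript clusters. The platform annotation listed 17608, giving 14735 a single symbol and 2873 several, and 1100 were not listed. Symbols were checked against RefSeq (GRCh38.p14), with 0 updated. Where a gene had several rows the row with the highest mean stood for it, which left out 324 rows and gave 18384 features, 14411 of them with a single symbol.

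Lines and replicates were taken from the titles. A limma 3.58.1 model (R 4.3.3, lmFit and eBayes) with a mean for each of the 5 lines was fitted over all 20 arrays, with 15 residual degrees of freedom, and the NME1-K12Q line was compared with Parent, with each other line and with the mean of the other 4 by two-sided tests. Benjamini-Hochberg adjustment ran over all features. A feature counted as changed with a fold of 1.5 or more and an adjusted p below 0.05. The steps were tested on simulated data. Arrays have no read depth: precision is limited by how many there are. The NME1 row was also tested by exact permutation.

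Named genes are the changed features, the 12 single-symbol genes in each direction with the largest difference from Parent among those with separate arrays and p under 0.05, up to 8 in each direction changed against the mean of the other lines and up to 4 against each other NME1 line, the changed, smallest-p and brightest members of each list, and the NME family. A few other list members at the ends of a list's range, and the pigment and cell type markers, were named after their values were seen. The members, the 27 gene lists and the tests were chosen with earlier results of these data known. Alternatives covered the arrays fitted, rows, normalisation, centring, a filter on dim features, the interquartile range as a covariate, array weights, the replicate number as a block, the narrowest arrays, treat and each array left out. For list medians these settings were added after the data were seen. The labels do not say what a replicate number shares. The main limma tests did not use pairs, and the replicate number entered as a block among the alternatives. Same-numbered arrays were described as deviating together where all 4 had deviations from their line means that correlated with r over 0.1. This held for NME1-K12Q with NME1-wild-type (0.512, 0.234, 0.259 and 0.452) and not with the other lines. With Parent the values were 0.301, 0.771, -0.04 and 0.810, so only replicate 3 fell short of that limit. Promoter windows were read from a RefSeq table of GRCh38.p14 with Python 3.11.15, and figures drawn with matplotlib 3.10.9. Genes with near-identical copies, such as PCDHB14 and XAGE1, are uncertain.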

Additional observations from a re-analysis of the deposited data

Results flagged for a closer look

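Single arrays stood apart from the other 3 of their line in 5 of 158 groups of 4 tested over 79 genes, where chance flags about 1 in 20. NETO2 in NME1-K12Q replicate 2 was low, at 5.604 against 5.73 to 5.75 on the other NME1-K12Q arrays. In Parent replicate 2, TCL1A was high at 6.23, and CCN2 and THBS1 were low at 10.07 and 12.66. In Parent replicate 1, SPRY2 was high at 10.33. Parent replicate 2 is also the array of narrowest spread.

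A direct test found that the difference from Parent was not the same in NME1-K12Q as in another NME1 line for the following genes, given as NME1-K12Q minus that line. Against NME1-wild-type the log2 differences were -2.49 for CXCL11, -1.18 for TRIML2, -1.05 for ALDOC, -1.01 for NETO2 and 0.72 for NTRK3. Against NME1-E5A they were lower in NME1-K12Q for ALDOC (-1.67), NRN1 (-1.20), SERPINA3 (-1.13), BEND5 (-1.09), AK4 (-1.02), ENO2 (-0.88) and BNIP3 (-0.83). They were higher for EREG (1.61), row 3768412 (1.42), MMP3 (1.41), BMP2 (1.39), NETO2 (1.21), SLC7A11 (1.09) and INHBA (0.65). Against NME1-P96S the lower genes were ALDOC (-1.23), HLA-DPB1 (-0.91), HLA-DPA1 (-0.88), PCDHB14 (-0.86), CD74 (-0.86) and SERPINA3 (-0.74). The higher ones were SLC7A11 (2.34), EREG (1.36), row 3768412 (1.28), DKK1 (1.26), IFI6 (1.17), BMP2 (1.06), INHBA (0.98), CDCA7L (0.96), PRDM1 (0.95), MMP3 (0.91), TRIML2 (0.73), EYA1 (0.70) and MX1 (0.59). All of these passed, with limma adjusted p from 1.63e-06 to 0.0427. The 3 highest limma adjusted p were those of AK4 (0.0332) and SLC7A11 (0.0427) against NME1-E5A and of HLA-DPA1 (0.0384) against NME1-P96S. Because both lines are set against the same Parent arrays, the Parent mean drops out of these tests. They are therefore the comparisons between NME1 lines already given above, and some of these genes were named because they passed them.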

How the results depend on the processing

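The count of 1 changed feature against Parent was 0 when only the 8 arrays were fitted, 2 with quantile normalisation, 9 with the interquartile range as a covariate, 2 with the replicate block, 28 with array weights, 6 without the 3 narrowest arrays and 0 with treat against 1.5-fold. Leaving out 1 array gave 0 to 3. Against NME1-wild-type (7 changed) it was 11 with quantile normalisation, 21 with the covariate, 21 with weights, 17 without the narrowest arrays, 0 with treat and 4 to 14 leaving out 1 array. Against NME1-E5A (31 changed) it was 61 with the covariate, 94 with weights, 48 without the narrowest arrays, 5 with treat and 22 to 36 leaving out 1 array. Against NME1-P96S (51 changed) it was 2 with the 2 lines fitted alone, 87 with the covariate, 370 with weights, 82 without the narrowest arrays, 1 with treat and 26 to 77 leaving out 1 array. Against the mean of the other lines (11 changed) it was 20 with the covariate, 30 with weights, 0 with treat and 6 to 14 leaving out 1 array. The lowest counts came without NME1-K12Q replicate 1 or 3 or Parent replicate 2 or 3 against Parent, NME1-K12Q or NME1-wild-type replicate 1 against NME1-wild-type, NME1-K12Q replicate 3 or 4 against NME1-E5A, NME1-K12Q replicate 4 against NME1-P96S and NME1-K12Q replicate 1 against the mean of the other lines. The highest came without NME1-P96S replicate 3, tied with Parent replicate 2 against NME1-E5A. Features bounded within 1.5-fold of Parent numbered 9479 to 15038 leaving out 1 array, with the lowest without Parent replicate 4, and the NME1 row differed by 0.17 to 0.32. The cause of these shifts was not tested. With the replicate block, MMP3 also passed against Parent (0.80, limma adjusted p = 0.00858) and IFI6 against the mean of the other lines (0.64, limma adjusted p = 0.0323). Same-numbered NME1-K12Q and Parent arrays had r of 0.301, 0.771, -0.04 and 0.810, and the third did not match its own number best. Against NME1-wild-type the block called 7 features, 6 of them shared. Of 5195 single-gene values under alternatives, 101 no longer passed and 42 newly passed. No difference whose interval excluded 0 changed sign, and 78 values of other differences, all against Parent, had the other sign. Of 783 list medians under alternatives, 11 moved by more than the spread between arrays.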
